A study of Homo sapiens with 4 samples.

Results

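The genes described here keep the cell's redox balance: the NRF2 pathway and its targets, the glutathione and thioredoxin systems, and the enzymes that supply NADPH. They were listed by name, 39 in all, after a first look at the same contrast between PRMT6 knockout and control cells, so their values in that contrast are a description: no p-value is given for any of them, and nothing is read from the count of calls among them. A probe set with only that gene's symbol was found for 37 of the 39 (78 probe sets), out of 19775 genes and 54613 probe sets in the series. PRDX5 and FTH1 had no such probe set in the annotation used and were not analysed here. The cells were NUGC3, a long-established line from a human gastric cancer. The control group was 2 arrays of PRMT6 wild-type cells and the knockout group, named PRMT6-KO, was 2 arrays of cells in which a lentiviral lentiCRISPR v2 construct with 1 guide had cut the PRMT6 gene. Knockout cells were selected with puromycin and cloned by limiting dilution. Whether the arrays hold 1 clone or several, and whether control cells received a vector or puromycin, is not stated in the labels, so effects of the clone, the vector and the loss of PRMT6 cannot be told apart.

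NRF2, encoded by NFE2L2, is a transcription factor that KEAP1 marks for degradation; electrophiles and oxidants disable KEAP1, and NRF2 then enters the nucleus, pairs with small MAF proteins and binds antioxidant response elements. Its known targets make glutathione, reduce thioredoxin, detoxify quinones and carbonyls, break down haem, store iron and regenerate NADPH, the electron donor for both thiol systems. In the cytosol NADPH comes mainly from the pentose phosphate pathway, malic enzyme and isocitrate dehydrogenase, and in mitochondria largely from NNT, a proton-driven pump that moves electrons from NADH to NADP. NRF2 signalling is constitutively active in some carcinomas.

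The core of the antioxidant response element, TGACNNNGC, was searched on both strands of the 250 bases before each gene start in the RefSeq promoter table (GRCh38.p14). Windows were found for 30 of the 39 genes, 46 in all, since some genes have several starts. The core was present in 8 of these 46 windows (17.4%) and in 3830 of all 35116 windows (10.9%). By gene, that is 7 of 30 (23.3%) against 3609 of 27305 (13.2%). A match is a description of the letters and not a binding site, the window leaves out distal elements, and none of the member matches held the AP-1 sequence TGACTCA, which shares 5′ letters with the core. The windows below are shown because they belong to the regulator KEAP1, to the targets GCLM and TXNRD1, whose array values differed among the most in the list, and to GPX2, whose values overlapped on its brightest probe set. Each is 120 bases upstream of a gene start, with the core in capitals; GCNNNGTCA is the core on the other strand.
GCLM, chr1:93909431-93909550, minus strand: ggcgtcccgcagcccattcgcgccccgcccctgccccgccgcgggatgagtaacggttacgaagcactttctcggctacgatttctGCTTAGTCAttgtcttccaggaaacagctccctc
TXNRD1, chr12:104215630-104215749, plus strand: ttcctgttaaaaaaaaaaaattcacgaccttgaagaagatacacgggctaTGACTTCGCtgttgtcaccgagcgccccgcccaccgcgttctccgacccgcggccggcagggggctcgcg
TXNRD1, chr12:104286880-104286999, plus strand: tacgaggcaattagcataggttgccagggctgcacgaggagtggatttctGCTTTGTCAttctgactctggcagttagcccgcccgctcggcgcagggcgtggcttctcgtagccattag
KEAP1, chr19:10502772-10502891, minus strand: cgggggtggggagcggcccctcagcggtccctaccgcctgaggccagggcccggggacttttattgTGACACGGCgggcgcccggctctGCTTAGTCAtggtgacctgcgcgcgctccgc
GPX2, chr14:64942798-64942917, minus strand: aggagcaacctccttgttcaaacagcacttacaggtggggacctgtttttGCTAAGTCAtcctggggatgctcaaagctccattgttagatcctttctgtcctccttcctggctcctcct
The core lay 34 bases before the gene start of GCLM, 99 and 102 bases before the starts of TXNRD1, and 122 bases before that of GPX2. KEAP1 held it in both orientations, 54 and 31 bases before its start. PGD, IDH1 and CBR1 held 1 match each. All other listed genes, HMOX1, NQO1, GCLC, SRXN1 and TKT among them, held no match or had no window.

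Values are log2 expression, so a difference of 1 is a 2-fold difference. All were normalized by the authors with RMA, and levels are not compared between probe sets. The 4 arrays had medians of 4.73 to 4.77, and control replicate 2 had a lower upper quartile (6.62) than the other arrays (6.77 to 6.79). It also correlated less with the knockout arrays (r = 0.992) than control replicate 1 did (r = 0.995). The epithelial markers EPCAM, KRT8, KRT18, KRT19, CDH1, CLDN4 and CLDN7 were all above the median of all values (4.75), while of 8 gastric markers 5 were, with CLDN18 and GKN1 at or below 4.06 on every array and ANXA10 at 5.39 and 5.36 in control against 4.14 and 3.83 in knockout (-1.39). Of the markers of other cell types, 2 of 5 fibroblast, 2 of 5 leukocyte and 2 of 4 endothelial genes had a mean above that median. LCP1, an actin-bundling protein of leukocytes, read 10.65 to 10.78, the collagen gene COL1A1 7.33 to 7.52, PECAM1 5.91 to 6.07 and CD3E 5.33 to 5.65, while PTPRC, LUM, CDH5 and KDR lay at or below 3.01. The part of these markers in the results was not tested. The targeted PRMT6 read 7.66 on both control arrays and 6.87 and 6.91 on the knockout arrays. In bulk RNA a change in the share of cells that express a gene and a change per cell cannot be told apart, and nothing in the labels says whether the arrays came from separate cultures, so any p-value measures only the spread between these samples.

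Most of the redox genes differed little between the groups. The median log2 fold change (knockout over control) was 0.034 over the 37 genes and -0.0091 over all genes, and the median size regardless of sign was 0.093 and 0.11. Both knockout arrays lay above both control arrays in 18 of the 37 genes (21.7% of all genes did), both lay below in 5 (21.6% of all genes), and 14 overlapped; 43.3% of all genes did not overlap. A size of at least 0.5 was reached by 1 of the 37, NNT, and by 3.65% of all genes. The limma test over all genes called 1 of the 37, again NNT, where it called 0.475% of all genes (71 higher and 23 lower, a share of 75.5% higher that both the quantile and the cyclic loess setting put at 63.6%). With trend and robust moderation, 4 of the 37 were called and 4.22% of all genes. Because the list was drawn up with this contrast in view, nothing is read from these counts. Over the 37 genes, the median absolute difference was 0.082 between the control arrays and 0.040 between the knockout arrays, against 0.14 and 0.085 over all genes. The 2 sets differ in level too: 4 of the 37 had a mean under the median of all values, against 7014 of all 19775 genes. The part of level in this difference between the sets was not tested.

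NNT, the mitochondrial transhydrogenase, had the largest difference in the list. On its brightest probe set, 202784_s_at, it read 3.24 on both control arrays and 5.18 and 4.94 on the knockout arrays. The control values lay at the lower quartile of all probe sets (3.22 and 3.29 on those arrays) and the knockout values just above the median (4.75 and 4.73). The log2 fold change was 1.82 (SE 0.11), a measured 3.53-fold difference with n = 2 arrays per group; since the control level was not shown to be above background, the true fold is uncertain. A second probe set, 202783_at, read 3.26 and 3.36 in control and 4.87 and 4.85 in knockout, a log2 fold change of 1.55. Both therefore separate the groups by far more than the replicates differ. The dimmest pair did less: 238530_at read 2.80 and 2.46 in control and 2.83 and 3.35 in knockout, and 244531_at lay between 2.52 and 2.63 on all arrays. Averaged over the 4 probe sets, the difference was 0.96, and without any one array the brightest probe set gave 1.70 to 1.94. No array left out could turn the sign, since the groups did not overlap. The limma call was lost each time, as it was with the replicate number as a block.

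NNT has a pair of annotated starts in the promoter table. The window of the downstream one is shown because its gene went from the lower quartile of the arrays to above their median; CpG pairs are in capitals.
NNT, chr5:43603030-43603179, plus strand: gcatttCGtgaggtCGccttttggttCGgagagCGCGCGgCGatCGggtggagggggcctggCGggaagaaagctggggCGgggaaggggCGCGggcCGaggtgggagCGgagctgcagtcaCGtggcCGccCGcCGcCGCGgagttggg
These 150 bases before the start hold 20 CpG pairs, and the 250 bases before it hold 24, more than 76.3% of all promoter windows (median 11). The 250 bases before the other start hold 7. Neither NNT window held the TGACNNNGC core. DNA methylation was not measured, and nothing about its state is read from these letters.

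The pentose phosphate genes and the other sources of NADPH differed far less than NNT, and TKT of the former and ME3 of the latter stood out. TKT, the transketolase that links the pentose phosphate pathway to glycolysis, read 11.05 and 11.02 in control and 11.36 and 11.37 in knockout, a difference of 0.33 in log2 (SE 0.072), or 1.25-fold. Its other probe sets gave 0.35 and 0.47, with the knockout above the control arrays on each. TALDO1, the transaldolase of the same branch, went the other way without separating the groups, at 11.18 and 11.03 in control and 10.99 and 11.03 in knockout. PGD, the dehydrogenase that yields NADPH in the oxidative branch, overlapped too, with 9.23 and 9.34 in control and 9.30 and 9.37 in knockout. Of the 3 listed genes of this pathway, TKT alone had its groups apart on every probe set. ME3, a mitochondrial NADP-dependent malic enzyme, read 7.11 and 7.01 in control and 7.37 and 7.39 in knockout (log2 fold change 0.32), but its dimmer probe set gave -0.15 with overlapping groups. ME2, the NAD-dependent mitochondrial malic enzyme, gave 0.018, a value that was -0.0027 after cyclic loess normalization. The isocitrate dehydrogenases of the cytosol, IDH1, and of mitochondria, IDH2, gave 0.033 and 0.11; their groups did not overlap on the brightest probe sets, but did on the dimmer ones, and for IDH2 the nearest control and knockout values were both 6.63.

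Of the regulators, KEAP1 had its groups apart and NFE2L2 overlapped on its brightest probe set. NFE2L2, the NRF2 gene, read 9.87 and 9.89 in control and 9.90 and 9.88 in knockout, a log2 fold change of 0.0067 (SE 0.072) that turned to just below 0 after quantile and after cyclic loess normalization. Its dimmer probe sets gave 0.26 with the groups apart and -0.040 with overlap. KEAP1, the adaptor that targets NRF2 for degradation, read 8.65 and 8.55 in control and 8.78 and 8.82 in knockout, a log2 fold change of 0.19 (SE 0.080) on its only probe set. NRF2 is controlled mainly at the level of the protein, which was not measured.

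In glutathione supply, the rate-limiting enzyme read higher in the knockout arrays on all of its probe sets, and the reductase read lower. GCLM, the modifier subunit of glutamate-cysteine ligase, read 8.88 and 9.06 in control and 9.40 and 9.43 in knockout, a difference of 0.45 in log2 (SE 0.093), or 1.36-fold. Its other probe sets gave 0.56 and 0.39. GCLC, the catalytic subunit of the same ligase, read 8.60 and 8.59 in control and 8.87 and 8.80 in knockout (0.24, SE 0.076), with 0.32 and 0.37 on the others. In all 6 probe sets of the ligase the groups were apart, as they were, in either direction, in 38.7% of all probe sets. The GCLC probe set that gave 0.37 lay below the median of all values (4.75) on every array, where signal and background were not separated. SLC7A11, which imports the cystine that feeds this step, gave 0.14, with 9.71 and 9.57 in control and 9.81 and 9.76 in knockout; its other probe sets gave 0.030 and -0.12 with overlap. GSS, the glutathione synthetase that completes the tripeptide, gave 0.028 and -0.029 on its probe sets. GSR is the reductase that uses NADPH to recycle oxidized glutathione. Alone among listed genes with several probe sets, it had both knockout arrays below both control arrays on each. It read 8.59 and 8.67 in control and 8.41 and 8.54 in knockout (-0.16, SE 0.088), and 8.27 and 8.40 against 8.17 and 8.16 on the second probe set (-0.17). These differences of GSR are close to the spread between its replicates.

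Of the 8 measured genes of the thioredoxin system, TXNRD1, SRXN1, PRDX1 and PRDX2 had both knockout arrays above control on the brightest probe set. The other 4 overlapped. Of all genes, 21.7% had both knockout arrays above control, and nothing is read from the count in this system. TXNRD1, the selenoenzyme that reduces thioredoxin with NADPH, read 10.96 and 10.75 in control and 11.34 and 11.35 in knockout, a difference of 0.49 in log2 (SE 0.10), or 1.40-fold. Its second probe set lay near the bottom of the arrays (1.80 to 2.21) and gave 0.048. The control arrays of TXNRD1 differed by more than the knockout arrays did, so the value was 0.38 without control replicate 2 and 0.59 without control replicate 1. TXN, the cytosolic thioredoxin, and its mitochondrial counterparts TXN2 and TXNRD2 overlapped on their brightest probe sets, with 0.033, -0.015 and 0.042, the last of which turned below 0 after both other normalizations; the dim second probe set of TXNRD2 gave -0.20 with the groups apart. SRXN1, the sulfiredoxin that repairs overoxidized peroxiredoxins and a classical NRF2 target, read 10.22 and 10.20 in control and 10.30 and 10.40 in knockout (0.15, SE 0.079). PRDX2, a cytosolic peroxiredoxin, read 10.68 and 10.63 in control and 10.84 and 10.83 in knockout (0.18, SE 0.073), while its 3 dimmer probe sets gave -0.028 to 0.0098 with overlap. PRDX1, its close relative, gave 0.034. The mitochondrial PRDX3 gave -0.031 with overlap on its brightest probe set, and on its second read 5.02 and 4.84 in control and 4.31 and 4.69 in knockout (-0.42).

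Among enzymes for quinones, haem and carbonyls the list split. HMOX1, the inducible haem oxygenase, read 5.70 on both control arrays and 6.08 and 6.25 on the knockout arrays, a difference of 0.47 in log2 (SE 0.090), or 1.38-fold, on its only probe set. NQO1, the quinone reductase most often used to read NRF2 activity, gave 0.19, 0.26 and 0.31 on its 3 probe sets; the brightest read 9.86 and 9.74 in control and 9.97 and 10.01 in knockout. OSGIN1, a growth inhibitor induced by oxidative stress, read 5.35 and 5.62 in control and 5.79 and 5.69 in knockout (0.25, SE 0.12). CBR1, a carbonyl reductase, read 8.91 and 8.82 in control and 8.93 and 8.95 in knockout (0.074). The aldo-keto reductases, also NRF2 targets, did not share this direction. AKR1B10, which reduces retinal and lipid aldehydes, read 3.23 and 3.50 in control and 3.02 and 2.85 in knockout (-0.43, SE 0.13), but all of these lay below the array medians, where signal and background were not separated. AKR1C1, a hydroxysteroid dehydrogenase, gave -0.085 and -0.18 on its 2 brightest probe sets, both of a type (_x_at) that can pick up near-identical relatives such as AKR1C2, and overlapped on the other 3. AKR1C3 read 3.79 to 4.15 on all arrays, below the median, and overlapped.

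Catalase, the glutathione peroxidases and the superoxide dismutases had log2 fold changes between -0.14 and 0.0050 on their brightest probe sets. CAT, the peroxisomal catalase, read 10.04 and 9.98 in control and 9.82 and 9.91 in knockout (-0.14, SE 0.080), and its second probe set gave -0.042 with overlap. GPX1, GPX2 and GPX4, the glutathione peroxidases, gave -0.031, -0.041 and -0.072. For GPX1 both knockout arrays lay below both control arrays. GPX4, which reduces lipid peroxides in membranes, and GPX2 overlapped, and without control replicate 1 both gave small positive values. The mean of GPX2 lay below the median of all values (4.75) in both groups, where signal and background were not separated. Its dimmer second probe set gave -0.17 with the groups apart. SOD1, the cytosolic superoxide dismutase, gave -0.017 and the mitochondrial SOD2 gave 0.0050 on the 1 probe set that carries its symbol alone; both signs turned after quantile and after cyclic loess normalization. The other 4 SOD2 probe sets carry a second symbol and were not used. FTL, the ferritin light chain that stores iron, read 12.80 and 12.77 in control and 12.84 and 12.86 in knockout (0.066), on a probe set of the _x_at type.

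Over all 78 probe sets of these genes, 30 had both knockout arrays above control, 11 had both below and 37 overlapped, so 52.6% did not overlap, against 38.7% of all probe sets. Of the 24 genes with more than 1 probe set, 4 had every probe set above (NQO1, GCLC, GCLM and TKT). In 1 of the 24 every probe set lay below (GSR), and 0 had probe sets on both sides. The shares over all genes with more than 1 probe set were not computed, so nothing is read from these counts. NNT had 3 of 4 above. Of the 78 probe sets, 20 had a mean under the median of all values, among them all 4 of NNT.

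**Figure D1:**
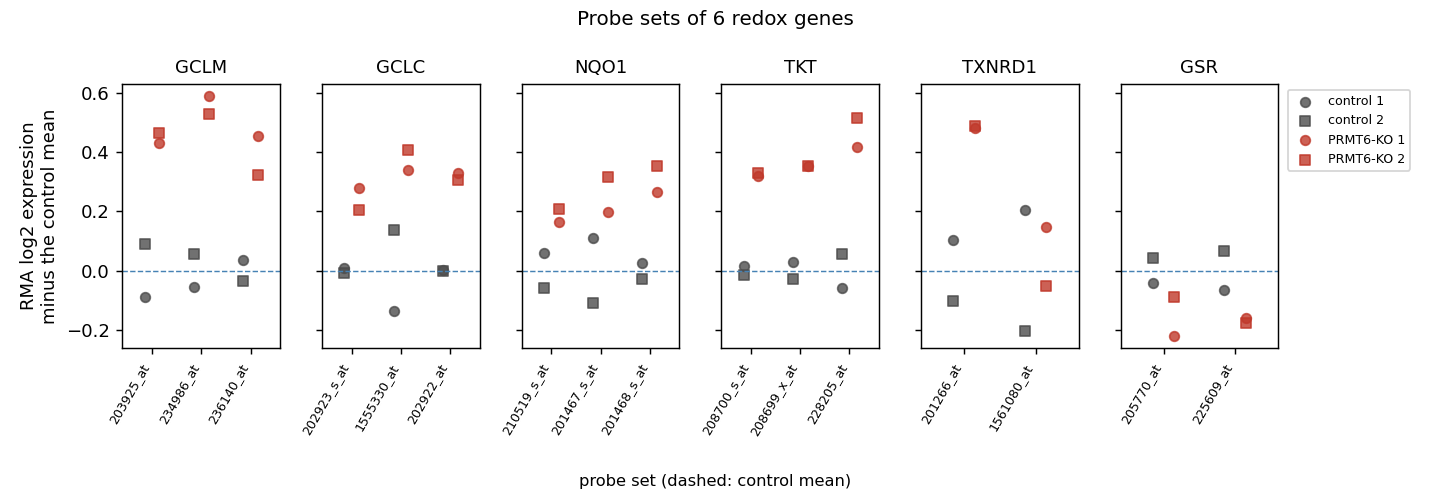
RMA log2 expression minus the control mean for every probe set of GCLM, GCLC, NQO1, TKT, TXNRD1 and GSR, with grey control and red PRMT6-KO arrays, circles for replicate 1 and squares for replicate 2. The knockout arrays lie above the control arrays on all probe sets of GCLM, GCLC, NQO1 and TKT and below them on both of GSR, while the dim second probe set of TXNRD1 overlaps.

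Other genes of the same pathways were taken from lists by function, 152 in all, of which 139 were measured. The limma test over all genes called 1 of them lower and 0 higher, where it called 0.116% and 0.359% of all genes; 25 of the 139 had an unadjusted p under 0.05, as did 11.9% of all genes. Both knockout arrays lay above control in 42 of the 139 (21.7% of all genes) and below in 29 (21.6% of all genes), and the median log2 fold change was 0.020. These lists, too, were drawn up with earlier results in view, so the test of a gene on them is not independent evidence. The called gene was TXNIP, which binds and inhibits thioredoxin and restrains glucose uptake. TXNIP fell from 8.35 and 8.57 in control to 7.19 and 7.28 in knockout, a log2 fold change of -1.23 (SE 0.11, limma adjusted p = 0.0424). Its other probe sets gave -1.03 and -1.02, and in the limma test over every probe set of the table none of the 3 passed (adjusted p from 0.0675 to 0.11). The call was also lost when any one array was left out and with the replicate number as a block.

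No other gene on these lists passed the test. In iron handling, TFR2, a transferrin receptor that senses iron, gave 1.22 (limma adjusted p = 0.0653), from 5.04 and 5.39 to 6.43 and 6.45, and its other probe sets gave 0.61 and 0.13; STEAP3, an endosomal iron reductase, gave -0.40. Among oxidases and other antioxidant genes, DUOX1, which makes hydrogen peroxide from NADPH, gave 0.93 (limma adjusted p = 0.126) on its brightest probe set and 0.26 and -0.14 on the others, while SELENOP, a secreted selenium carrier, gave -0.59. Among other NADPH genes, PGLS, the lactonase of the pentose phosphate pathway, gave 0.34 and MTHFD2L, a mitochondrial folate enzyme, -0.52. Of glutathione genes, GGT7, a member of the gamma-glutamyltransferase family, gave 0.41 and GSTA4, a transferase for lipid aldehydes, -0.47. SESN3, a sestrin, gave 0.70, but its control arrays read 3.67 and 2.67. Of other NRF2 targets, the efflux pumps ABCC4 and ABCC2 gave 0.20 and -0.38. SELENOP, GSTA4, SESN3 and ABCC2 lay below the median of all values (4.75) on every array, where signal and background were not separated. In the group of NRF2 partners, related factors and genes of NRF2 degradation, 7 of 11 lay above control (21.7% of all genes) and 2 below (21.6%). BACH2, a repressor that shares the small MAF partners, gave 0.35 and CUL3, the scaffold of the KEAP1 ligase, -0.071.

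**Figure D2:**
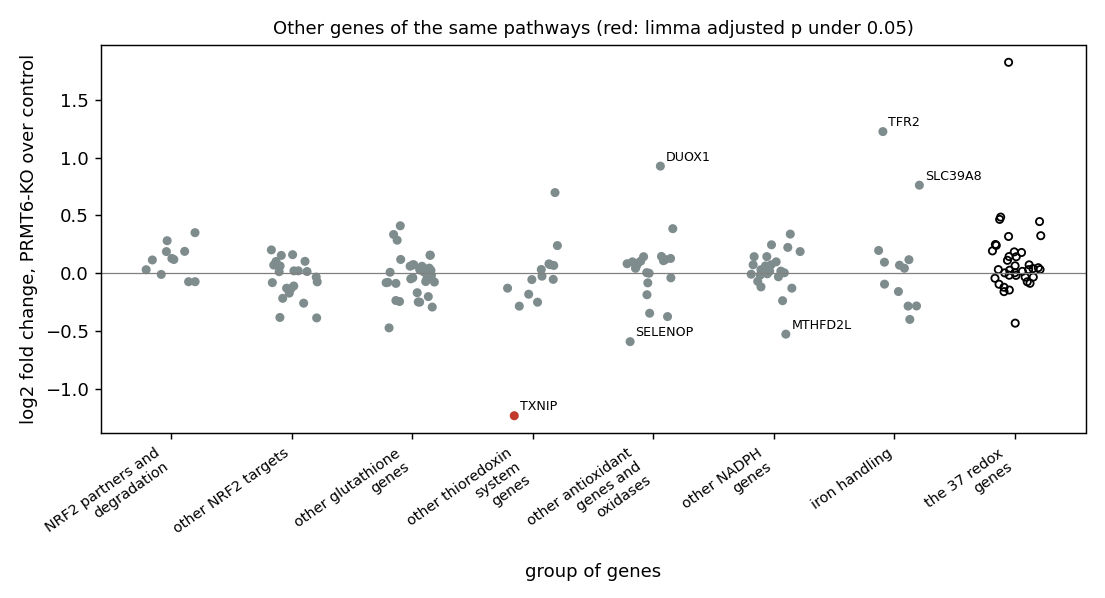
Log2 fold change (PRMT6-KO over control, brightest probe set, 2 arrays per group) of 139 other genes in groups by function, with the 37 listed redox genes as open circles at the right. The red point, TXNIP at -1.23, is the only one of the 139 with a limma adjusted p under 0.05; horizontal scatter within a group has no meaning.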

How the data were processed

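Each deposited value is the log2 expression of a probe set. Per the submitters' processing notes, the authors used RMA and affy; versions and settings are not stated there. RMA by its usual definition corrects background, forces a common distribution on the arrays and summarises the probes of a set. A shift shared by most transcripts would be removed by these steps, and changes near background compressed. The deposited values did not share 1 distribution, with an upper quartile of 6.62 for control replicate 2 and 6.77 to 6.79 for the other arrays. How far shared shifts were removed was not tested.

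The table held 54613 probe sets, of which 41091 had 1 gene symbol in the platform annotation, 1801 several and 11721 none. Each of 19775 genes was represented by its brightest probe set with 1 symbol. Gene IDs of 41037 probe sets matched the reference gene table, which changed 0 symbols.

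Groups were compared with limma 3.58.1 in R 4.3.3 (lmFit, eBayes, group as the only term, two-sided, Benjamini-Hochberg over all genes, called at an adjusted p under 0.05). The steps were tested on simulated data. The genes, their roles and the other pathway lists were chosen with earlier results of these data known. Of the 39 listed genes, the 37 measured are all described whatever their values. Of the other pathway genes, those called and, per group, the highest and lowest difference among genes whose groups did not overlap are named. Some genes of these pathways are not reported here. Alternatives were other normalizations, other probe set choices, a filter on dim genes, trend and robust moderation, the replicate number as a block and leaving out each array.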

Additional observations from a re-analysis of the deposited data

How the results depend on the processing

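The number of genes called, 94, became 195 after quantile and 231 after cyclic loess normalization, 309 when only genes at or above the median level were tested, and 835 with trend and robust moderation. Of the 37 redox genes, 1 was called as reported, 0 with the filter on dim genes, which removed NNT, and 4 with trend and robust moderation (4.22% of all genes were called there). Nothing is read from these counts, since the list was drawn up with this contrast in view. Of the other pathway genes, 1 was called as reported, 2 after cyclic loess, 4 with the filter and 12 with trend and robust moderation. When limma tested all probe sets, 0 were called, and 27 had an unadjusted p under 0.05 on at least 1 of their probe sets. Of all 54613 probe sets, 4726 had such a p. The 27 cannot be set beside counts made with 1 probe set per gene. With the replicate number as a block, limma called 0 genes, 0 of the 37 and 0 of the other pathway genes (smallest adjusted p = 0.0823; 1942, 7 and 19 at an unadjusted p under 0.05). Same-numbered arrays did not deviate together (r = -0.067 over genes), so the numbers were not taken as pairs. Leaving out any 1 array also gave 0 calls in each of these counts, by limma with the lone array assumed to vary like the other group (954 to 4892 genes, 3 to 10 of the 37 and 9 to 32 of the others at an unadjusted p under 0.05). Over 440 log2 fold changes of the 37 genes under these alternatives, 407 kept their sign and 33 turned. In every alternative that could be computed, 23 genes kept it, among them NNT, GCLM, GCLC, TXNRD1, TKT, HMOX1, NQO1, ME3 and GSR. Much of this was fixed in advance. The dim filter, the moderation, the block and the test of all probe sets leave the log2 fold changes as reported. Leaving out 1 array cannot turn the sign of a gene whose groups do not overlap, as in all genes just named. For these genes, only the other normalizations and the other choices of probe set for a gene could turn it. The background correction could not be varied from these values, and 2 arrays per group limit the precision.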

Other observations

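The neighbours of NNT along chromosome 5 were looked at after its value was seen, taking the 5 measured genes on each side in the order of the reference gene table. Of these 10 genes, 7 had a positive log2 fold change, as did 9362 of all 19775 genes. The median was 0.091, against -0.0091 over all genes. Both knockout arrays lay above control in 4 of the 10 (21.7% of all genes) and below in 2 (21.6% of all genes). Among these, NNT-AS1 and EMB, which lay above, and FGF10-AS1, which lay below, read under 4.75 on every array. That is the median of all values, and signal and background were not separated below it. CCL28, a mucosal chemokine, read 5.56 and 5.41 in control and 6.36 and 6.41 in knockout, a log2 fold change of 0.90 (limma adjusted p = 0.0529). TMEM267, the next gene towards NNT, gave -0.27, PAIP1, a translation factor, -0.029, and MRPS30, a mitochondrial ribosomal protein on the far side, 0.011. NNT-AS1, the antisense transcript beside NNT, read 2.17 and 2.13 in control and 2.54 and 2.25 in knockout. None of these 10 neighbours passed the test over all genes.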
